A study of Rattus norvegicus and Ovis aries with 113 samples.

Results

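The 9 genes described here encode the subunits of the AMPA receptor, GRIA1, GRIA2, GRIA3 and GRIA4, and the core subunits of the NMDA receptor, GRIN1, GRIN2A, GRIN2B, GRIN2C and GRIN2D. They were chosen by name, and all 9 were found by upper-cased symbol among the 31304 genes of the sheep tables and among the 38675 genes of the rat tables. The series measured RNA in nervous and reproductive tissue of untreated animals, asking by its title which genes bridge both functions across mammals. From each of 5 post-pubertal male sheep (numbers 687, 688, 690, 694 and 699) it took sperm and 10 dissections of one hemisphere: basal ganglia, cerebellum, entorhinal cortex, frontal cortex, hippocampus, motor cortex, prefrontal cortex, pons, posterior parietal cortex and visual cortex. From 15 post-pubertal male Sprague Dawley rats (numbers 3 to 17) it took whole brain and seminal fluid, the latter labelled sperm, and from 14 female Sprague Dawley rats (numbers 1, 2 and 18 to 29, age not given) whole brain and ovary. The labels give no breed for the sheep and no mutation or treatment for any animal, and RNA extraction and library kits differed between the species.

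AMPA and NMDA receptors are ligand-gated cation channels that open when glutamate binds, and together they carry most of the fast excitatory current in the brain. AMPA receptors assemble as tetramers of GRIA subunits and give the quick component, and edited GRIA2 keeps them nearly impermeable to calcium. NMDA receptors need the obligatory subunit GRIN1, which binds the co-agonist glycine or D-serine, joined with GRIN2 subunits that bind glutamate. The GRIN2 subunit in the channel sets how long it stays open and how strongly magnesium blocks it, and GRIN2B is classically the early and forebrain form, GRIN2A the later one, GRIN2C the cerebellar granule cell one and GRIN2D the brainstem and interneuron one.

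Promoter sequences from RefSeq (GRCr8) were at hand for 4 of the 9 rat genes: Gria4, Grin1, Grin2c and Grin2d. Of these, 3 are shown: Gria4 and Grin2c because they were the AMPA and the NMDA subunit gene called higher in the cerebellum, and Grin1 because every NMDA receptor needs it. Capitals mark motif letters found on either strand in a window of 300 bases, 250 before and 50 after the annotated start: the GC box GGGCGG, the GSG motif GCGGGGGCG and the E-box CAGCTG. For Gria4, bases -250 to -1 are at chr8:10319882-10320131 on the minus strand, and the gene model reaches 140 bases beyond this start. For Grin2c, bases -250 to -1 are at chr10:101005139-101005388 on the minus strand, and the gene model reaches 926 bases beyond this start. For Grin1, bases 6 to 35 after the start are at chr3:28528720-28528749 on the minus strand.
Gria4: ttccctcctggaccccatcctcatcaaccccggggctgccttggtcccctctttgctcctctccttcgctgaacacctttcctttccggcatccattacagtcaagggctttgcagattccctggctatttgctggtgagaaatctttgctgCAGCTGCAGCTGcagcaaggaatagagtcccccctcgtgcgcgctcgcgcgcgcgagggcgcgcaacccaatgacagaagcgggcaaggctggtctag
Grin2c: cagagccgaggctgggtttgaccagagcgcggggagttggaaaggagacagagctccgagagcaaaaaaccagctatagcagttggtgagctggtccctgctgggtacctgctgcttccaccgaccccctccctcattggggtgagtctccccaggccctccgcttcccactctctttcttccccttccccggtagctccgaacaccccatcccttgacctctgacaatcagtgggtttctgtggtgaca
Grin1: actcgactcagcgtcaggaaGCGGGGGCGG
The Gria4 window held a run of E-box letters at bases -98 to -87. In Grin1 a GSG motif at bases 26 to 34 overlapped a GC box at bases 30 to 35, and no searched motif lay in the Grin2c window. Over 33469 rat promoters of the same length, 15.1% held the E-box, 2.73% the GSG motif and 33.1% the GC box. These letters describe the sequence only, and no binding was measured.

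The rat genes lie at chr10:41710540-42030105 (Gria1), chr2:168247490-168367616 (Gria2), chrX:125103975-125369690 (Gria3), chr8:9845421-10320021 (Gria4), chr3:28501836-28528754 (Grin1), chr10:6136458-6560003 (Grin2a), chr4:170297811-170775420 (Grin2b), chr10:100987410-101006064 (Grin2c) and chr1:105443317-105483400 (Grin2d) of GRCr8. Grin1 overlaps Lrrc26, and Grin2d overlaps Grwd1 and the long noncoding RNA gene LOC134483106 in that annotation, and Fdxr and Kdelr1 begin 781 and 198 bases from Grin2c and Grin2d. Gria1, Gria2, Gria4, Grin2a and Grin2b overlap other entries, most of them without a gene name. How reads of overlapping genes were assigned is not given in the sources used here. Sheep genes carry no positions here.

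Libraries held 46.7 to 72.4 M counts (M being the mega prefix) in sheep brain, 13.7 to 65.1 M in sheep sperm, 38.2 to 119 M in rat brain, 50.5 to 60.3 M in rat ovary and 13.7 to 65.1 M in rat sperm. Brain levels are counts per M of the library total after trimmed mean of M values (TMM) scaling (CPM); sperm and ovary levels are counts per M of the plain total. The marker genes of the labelled tissue were high where they should be: GABRA6, of cerebellar granule cells, lay at 258 to 309 CPM in the cerebellum and at 10.6 or less elsewhere, and DRD1, of medium spiny neurons, at 158 to 279 CPM in the basal ganglia and at 28.8 or less elsewhere. Against that, 5 sheep libraries stood apart from their labels by marker genes, not all of which are given here. The nearest library, by Pearson's r of log2 levels across genes, is given as a description, since other entorhinal and hippocampal libraries were nearest to each other's region as well. Motor cortex of sheep 687 was nearest to the hippocampus of the same sheep (r 0.978). Entorhinal cortex of sheep 687 held 10.6 CPM of GABRA6, that of sheep 688 was nearest to frontal cortex, and that of sheep 694 was nearest to hippocampus. Hippocampus of sheep 699 had 1.28 CPM of NEUROD6, against 29.4 to 86.3 in the other 4 hippocampi. Results that move without these 5 libraries are given with both values. The pons of sheep 687 and 699 held 0.36 and 0.43 CPM of SLC6A5, a glycine transporter of brainstem neurons, against 2.36 to 28.7 in the other 3. SLC6A5 does not mark the pons alone, since the 5 cerebella held 5.43 to 10.8 CPM. HOXA2, another marker of the pons, had 8 to 463 counts in the 5 pons libraries and at most 3 in any other brain library. In rat brains 1 and 4, ribosomal RNA entries took 86.9% and 83.1% of the counts, against 2.39% to 54.0% in the other 27.

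**Figure D1:**
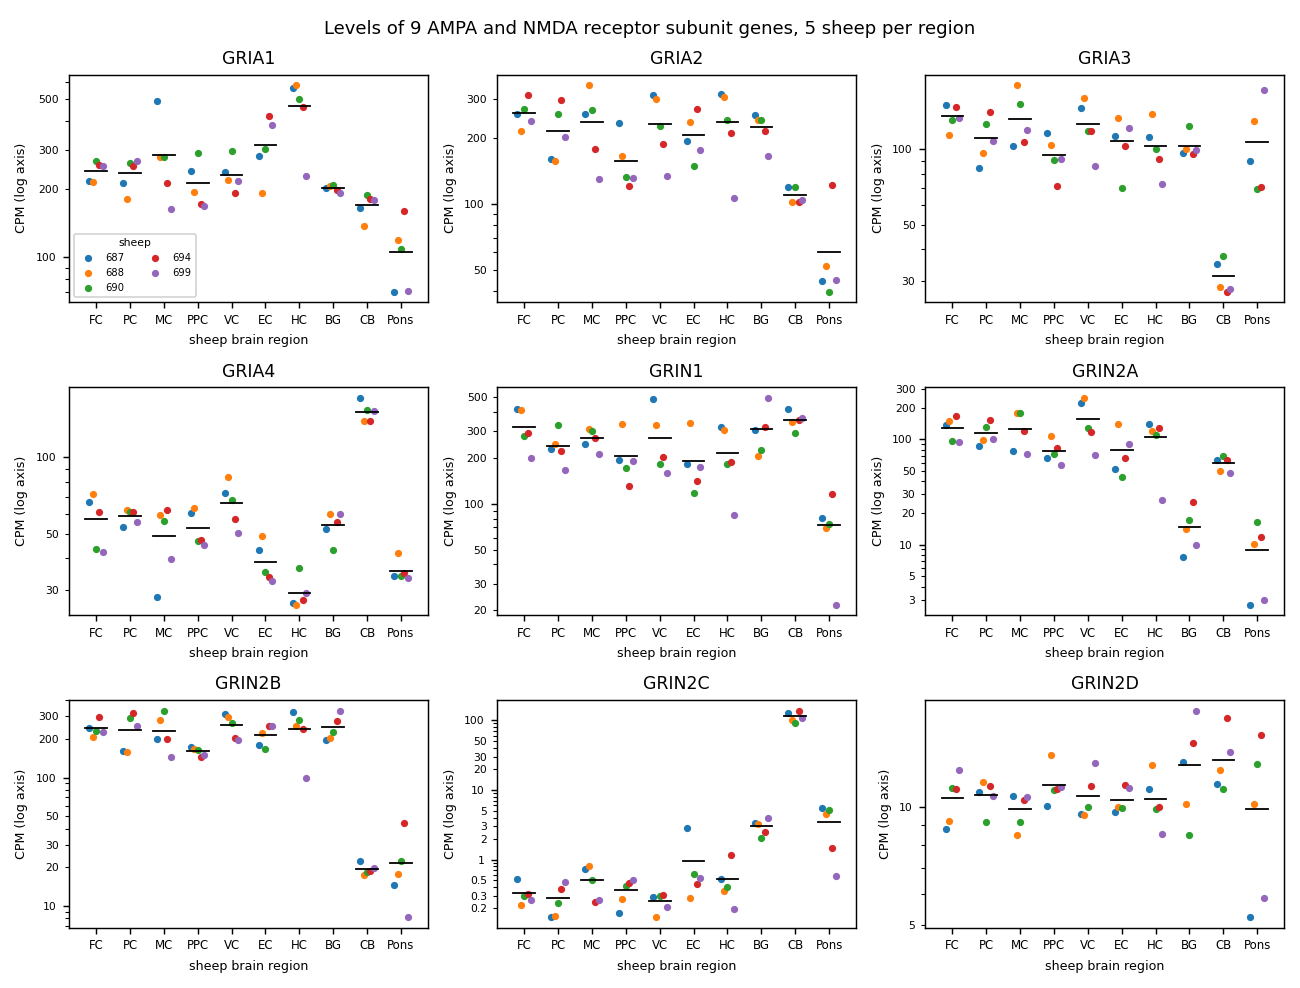
Level of each AMPA and NMDA receptor gene (TMM-scaled CPM, log axis) in the 10 brain regions of 5 sheep; each point is a library and each bar the mean of a region. GRIN2C in the cerebellum (92.8 to 138 CPM) stands clear of all other regions (at most 5.57 CPM), and GRIN2D stays between 5.23 and 17.6 CPM throughout.

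Each region was compared with the average of the remaining 9, to ask which subunits a region carries more or less of. A call needed an adjusted p under 0.05 and a log2 difference of 1 or more in either direction, and over the 10 regions 8 of the 9 genes were called at least once, all but GRIN2D, where 41.9% of all genes were called at least once. Since the reference of each region holds the cerebellum, pons and basal ganglia, whose levels differ most, a cortical gene can be called against them rather than against other cortex. In bulk tissue, fewer cells that express a gene and less RNA of it per cell cannot be told apart. When the 10 regions of each gene were ordered by mean level, the ranges of neighbours in that order did not overlap in 8 of 81 pairs, 1 for each gene but GRIN2D. The ranges of all other neighbours overlapped. The same count was not made over all genes, so it does not set the members apart from other genes.

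GRIA1, the main partner of GRIA2 in hippocampal AMPA receptors, was highest in the hippocampus. Its levels there were 560, 580, 501, 463 and 230 CPM in sheep 687, 688, 690, 694 and 699, in the order used for all values by sheep below. The mean of 467 ± 140 (SD, n = 5) was followed by 316 ± 90.6 (SD, n = 5) in entorhinal cortex and 285 ± 126 (SD, n = 5) in motor cortex. The lowest of the 5 hippocampi was that of sheep 699, which stood apart. GRIA1 was higher in the hippocampus than in the other 9 regions by 1.13 ± 0.15 on the log2 scale (SE; adjusted p 1.28e-06), by 1.32 without the 5 libraries that stood apart, and by 1.00, which rounds up from just under the size for a call, without sheep 688. In the pons it fell by 1.25 ± 0.19 on that scale (adjusted p 4.97e-07), with levels of 70.4, 119, 109, 160 and 71.2 CPM. All pontine values lay under the 5 of basal ganglia, 193 to 209 CPM, the tightest group of this gene. Motor cortex of sheep 687 had 493 CPM of GRIA1 against 163 to 278 in the other 4 motor cortices, the library that was nearest to hippocampus.

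GRIA2 carries the edited site that blocks calcium entry. It ranged in region means from 60.5 ± 34.5 CPM in the pons to 259 ± 37.3 CPM in frontal cortex (SD, n = 5 each). In the pons its levels were 44.5, 52.0, 39.6, 122 and 44.7 CPM, so sheep 694 lay above the other 4 and above the 5 cerebella, 102 to 120 CPM. The fall in the pons was -1.74 ± 0.24 on the log2 scale (adjusted p 5.29e-08). In the cerebellum GRIA2 was lower by a smaller amount that did not reach the size for a call, -0.79 ± 0.22 (adjusted p 0.00174).

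GRIA3, whose gene is X-linked, set the cerebellum apart from everything else. Its cerebellar levels were 35.1, 28.4, 37.7, 27.1 and 27.7 CPM, and no other library was under 69.6 CPM. The fold change there was -1.85 ± 0.18 on the log2 scale (adjusted p 4.07e-12). In the pons, where 3 other AMPA genes were at or near their lowest, GRIA3 held 89.7, 130, 69.6, 71.0 and 172 CPM, a difference of 0.12 ± 0.15 from the other regions (adjusted p 0.545) that turned to -0.18 when sheep 699 was left out. Frontal cortex had the highest mean, 135 ± 14.9 CPM (SD, n = 5), with no call.

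GRIA4, known for channels with fast kinetics, ran the other way. The cerebellum held 171, 139, 153, 139 and 152 CPM, and the highest library of any other region was the visual cortex of sheep 688 with 83.9 CPM. The cerebellar rise was 1.66 ± 0.10 on the log2 scale (adjusted p 4.17e-18). Lowest of all was the hippocampus, with 26.6, 26.3, 36.6, 27.3 and 29.3 CPM, a difference of -0.97 ± 0.13 just short of the size for a call (adjusted p 1.37e-06), which it passed without sheep 690 (-1.08) or 699 (-1.0). In the pons it stood at 33.5 to 42.2 CPM, which overlapped the hippocampus.

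GRIN1, which every NMDA receptor contains, was called in the pons alone. Its highest mean was in the cerebellum, 355 ± 45.7 CPM (SD, n = 5; 419, 345, 292, 355 and 365 CPM by sheep), where it was higher by 0.71 ± 0.23 on the log2 scale (adjusted p 0.00716), under the size for a call. The pons held 80.6, 69.2, 73.2, 116 and 21.8 CPM and was called lower by -1.84 ± 0.29 (adjusted p 1.05e-06). Entorhinal cortex, next lowest by mean with 118 to 336 CPM, did not overlap the pons, while the hippocampus of sheep 699, at 84.2 CPM, lay inside the pontine range. Basal ganglia spread from 207 CPM in sheep 688 to 496 CPM in sheep 699 and were not called.

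GRIN2A, which gives NMDA currents that decay quickly, was scarce in 2 of the 10 regions. In the basal ganglia it held 7.69, 14.0, 17.3, 25.3 and 9.89 CPM, and in the pons 2.69, 10.1, 16.6, 11.8 and 2.95 CPM. These ranges overlapped each other, while cerebellum, the next region up, began at 48.4 CPM. The fold changes were -2.38 ± 0.36 (adjusted p 1.15e-06) and -3.21 ± 0.39 (adjusted p 3.66e-09) on the log2 scale. Visual cortex had the highest mean, 158 ± 75 CPM (SD, n = 5), from levels of 223, 249, 127, 119 and 71.0 CPM, and was called higher by 1.41 ± 0.26 (adjusted p 0.000287). Frontal cortex (1.09 ± 0.27, adjusted p 0.00689) and motor cortex (1.04 ± 0.27, adjusted p 0.0167) were called as well. Those calls rest on single animals: the adjusted p in frontal cortex was 0.0591 without sheep 694, and in motor cortex 0.104, 0.136 and 0.0503 without sheep 688, 690 and 694.

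GRIN2B, a subunit of slowly decaying NMDA receptors, was low in the cerebellum and pons. The 5 cerebella lay between 17.5 and 22.3 CPM, and the pons held 14.4, 17.6, 22.5, 44.5 and 8.08 CPM, so these regions overlapped. All other libraries were at 98.5 CPM or more, the lowest being the hippocampus of sheep 699. The falls were -3.17 ± 0.27 (adjusted p 7.57e-14) and -3.00 ± 0.26 (adjusted p 1.22e-12) on the log2 scale. In the basal ganglia, where GRIN2A was scarce, GRIN2B held 196, 203, 227, 278 and 333 CPM. Their mean of 247 ± 57.5 (SD, n = 5) was close to the 255 ± 53.1 (SD, n = 5) of visual cortex, and the difference from the other regions, 0.91 ± 0.19 (adjusted p 0.000153), did not reach the size for a call. Visual cortex, at 0.96, passed it without sheep 694 (1.11) or 699 (1.02).

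GRIN2C had the widest range of region means of the 9 genes. Cerebellar levels were 129, 101, 92.8, 138 and 108 CPM, and the mean of 114 ± 18.8 (SD, n = 5) was 453 times that of visual cortex, 0.251 ± 0.0697 (SD, n = 5). The cerebellum rose by 7.43 ± 0.23 on the log2 scale (adjusted p 1.00e-28). Next came the pons, with 5.57, 4.50, 5.09, 1.44 and 0.579 CPM (1.81 ± 0.30, adjusted p 1.96e-06), and the basal ganglia, with 3.33, 3.25, 2.05, 2.46 and 3.91 CPM (1.6 ± 0.30, adjusted p 5.39e-05). Of the granule cell markers GABRA6 and CBLN3, basal ganglia held at most 0.0685 CPM and 2.14 to 3.74 CPM. Pons held 0.307 to 2.90 CPM of GABRA6 and 2.82 to 10.1 CPM of CBLN3. The part of granule cells in the GRIN2C values of these regions was not tested. In the entorhinal cortex, sheep 687 had 2.87 CPM of GRIN2C against 0.280 to 0.621 in the other 4, in the library that held 10.6 CPM of GABRA6 and 30.1 CPM of CBLN3. Frontal, prefrontal, posterior parietal and visual cortex were called lower, by -1.95, -2.17, -1.76 and -2.37 on the log2 scale, from means of 0.251 to 0.366 CPM. These calls rest on 7 to 31 counts per library. Motor cortex (0.244 to 0.819 CPM) and hippocampus (0.196 to 1.17 CPM) overlapped these cortices and were not called.

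GRIN2D, the subunit of the slowest NMDA receptors, was even. Region means ran from 9.85 ± 0.981 CPM in motor cortex to 13.1 ± 2.33 CPM in the cerebellum (SD, n = 5 each). The widest spread was in the pons, with 5.23, 10.1, 12.9, 15.2 and 5.86 CPM. Differences lay between -0.17 and 0.29 on the log2 scale in all 10 contrasts, and the smallest adjusted p was 0.0552, in the cerebellum.

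**Figure D2:**
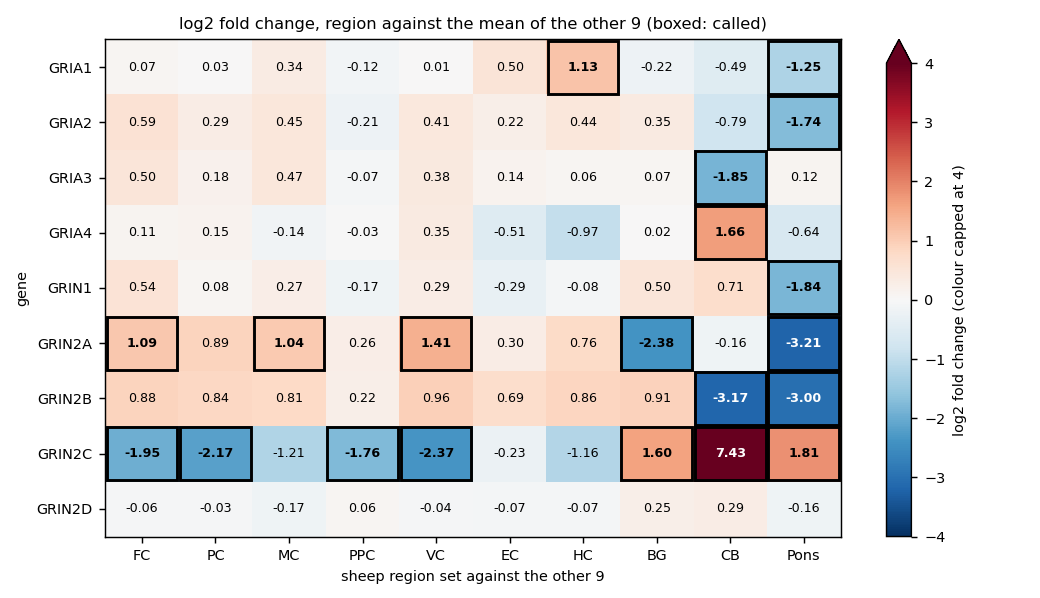
Log2 fold change of each receptor gene in each sheep brain region against the remaining 9 regions, as a grid of coloured cells, the called ones boxed. Pons holds 6 calls and cerebellum 4, from 7.43 for GRIN2C in the cerebellum to -3.21 for GRIN2A in the pons.

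By region, the cerebellum had 4 of 9 genes called, where 28.8% of all genes tested were called. Of these 4, GRIN2C and GRIA4 were higher (9.35% of all genes) and GRIN2B and GRIA3 lower (19.5%). The pons had 6 of 9 called beside 18.7% of all genes, GRIN2C higher (9.66%) and GRIN2A, GRIN2B, GRIN1, GRIA2 and GRIA1 lower (9.02%). In the basal ganglia 2 of 9 were called beside 10.3% of all genes, GRIN2C higher (5.54%) and GRIN2A lower (4.75%). Frontal cortex had 2 of 9 (2.77%), GRIN2A higher (2.36%) and GRIN2C lower (0.402%), and visual cortex the same 2 in the same directions (2.12%, with 1.87% higher and 0.251% lower). A single gene was called in the hippocampus, GRIA1, which was higher (4.62% of all genes, 3.46% higher and 1.15% lower), and in motor cortex, GRIN2A, also higher (1.64%, 1.51% higher and 0.128% lower). GRIN2C was the 1 gene called, and lower, in prefrontal cortex (2.46%, 1.75% higher and 0.705% lower) and in posterior parietal cortex (2.66%, 2.2% higher and 0.454% lower). Entorhinal cortex had 0 of 9 by edgeR and by DESeq2, beside 2.24% of all genes (2.23% higher and 0.0142% lower). At an unadjusted p below 0.05 it had 3 of 9 by either tool, and the share of all genes at that threshold was not computed. By edgeR, GRIA4 (-0.51, adjusted p 0.0114) and GRIN2B (0.69, adjusted p 0.0306) passed the adjusted p there and missed only the size for a call. The median log2 fold change of the 9 was -1.25 in the pons, where the median of all genes was 0.03, and between -0.16 and 0.50 in the other regions. Without the 5 libraries that stood apart, the hippocampus had 3 genes called, GRIA1, GRIN2A (1.02) and GRIN2B (1.06), beside 5.91% of all genes, and motor cortex 2, GRIN2A (1.18) and GRIN2C (-1.31), beside 2.72%. With sheep as a replicate block, the hippocampus had 2, GRIA1 and GRIN2C (-1.16, adjusted p 0.0412), beside 4.97% of all genes.

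In the pons all 4 oligodendrocyte markers were called higher, and of the 4 neuronal markers 2 were called lower, RBFOX3 (-2.40) and SYT1 (-2.28), and 2 not called, SNAP25 (-0.81) and STMN2 (0.15). The astrocyte markers went both ways, with GFAP (2.76) and AQP4 (1.06) higher, SLC1A3 (-1.18) lower and ALDH1L1 (0.03) not called, and none of 2 oligodendrocyte precursor and 3 microglia markers was called by edgeR. MBP, of myelin, lay at 10156 to 44922 CPM and GFAP, of astrocytes, at 13491 to 18216 CPM, against 646 to 22155 and 928 to 5742 CPM in the other 45 libraries. RBFOX3, of neurons, lay at 6.00 to 57.8 CPM against 50.6 to 363, and SNAP25 at 140 to 1438 CPM against 531 to 2477. All 4 neuronal markers were detected there, with a summed plain level of 312 to 1995 CPM, and the 4 oligodendrocyte markers summed to 19158 to 81052 CPM. The part of this mix in the 5 lower calls was not tested. Sheep 699 had the least SNAP25 and RBFOX3 and the most MBP. Of the 5 genes called lower, GRIN1 and GRIN2B were lowest in that sheep, GRIA1 and GRIN2A in sheep 687 and GRIA2 in sheep 690, while GRIA3 was highest in sheep 699.

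Gene tables count reads without regard to transcript length, so a share of the counts of a family is not a share of subunits, and shares are set only against those of other regions. Of the counts of the 4 AMPA genes, GRIA1 held 55.6% ± 2.29 in the hippocampus and 34.2% to 46.9% on average in the other regions. GRIA4 held 32.7% ± 1.92 in the cerebellum, against means of 3.88% to 11.9% elsewhere. GRIA3 held 35% ± 13.2 in the pons and 6.74% ± 0.701 in the cerebellum, against 12.8% to 19.6% elsewhere. Of the counts of the 4 GRIN2 genes, GRIN2B held 88.9% ± 1.69 in the basal ganglia, 48% ± 8.64 in the pons and 9.46% ± 0.975 in the cerebellum. GRIN2C held 55.2% ± 3.79 in the cerebellum, 8.96% ± 7.16 in the pons and at most 1.11% on average elsewhere. GRIN2D, whose CPM was even, held 23.9% ± 5.70 in the pons and 2.79% to 6.42% elsewhere. All errors are SD over 5 sheep.

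**Figure D3:**
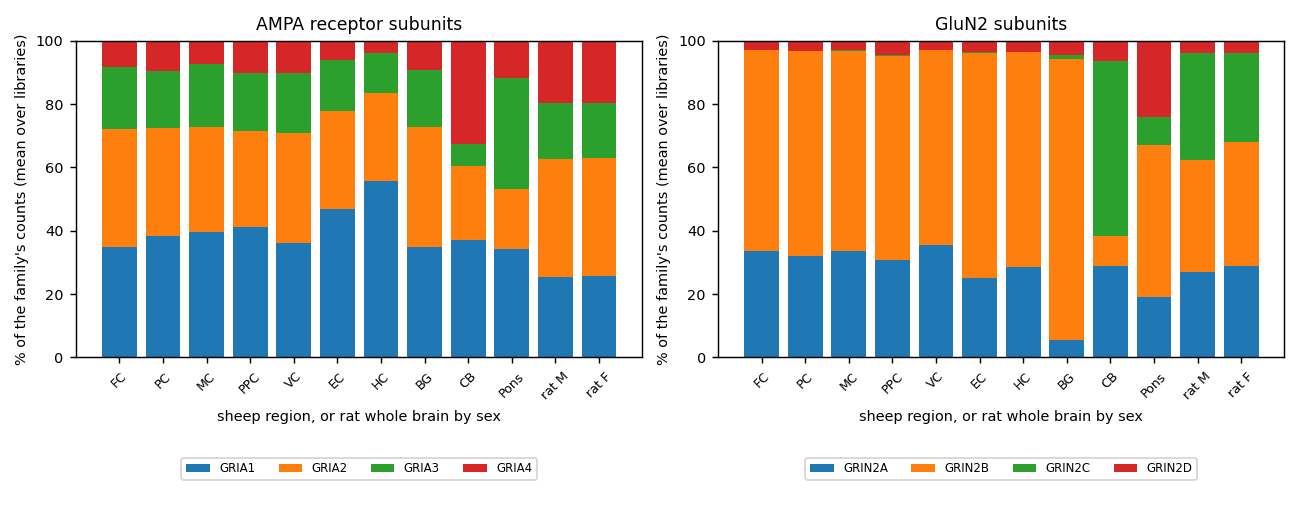
Mean share (percent) of the counts of the 4 AMPA receptor genes and of the 4 GRIN2 genes taken by each gene, in the 10 sheep brain regions and in male and female rat brain; counts are not corrected for transcript length. GRIN2C takes 55.2% of GRIN2 counts in sheep cerebellum and GRIN2B 88.9% in sheep basal ganglia.

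Count ratios between subunits do not depend on library scaling, and transcript length cancels when 1 ratio is compared between regions. Of 70 tests (7 ratios in 10 regions; exact permutation test over 2118760 relabellings of libraries, two-sided, Benjamini-Hochberg over the 70), 12 passed. These relabellings treat the regions of a sheep as independent libraries; permuting regions within each sheep also passed 12. The GRIN2B:GRIN2A log2 ratio averaged 4.15 ± 0.68 in the basal ganglia, from 3.46 to 5.07, and no other library was above 2.41 (difference 3.33, exact permutation adjusted p 1.65e-05). In the cerebellum it averaged -1.61 ± 0.25, from -1.92 to -1.29 (difference -3.07, exact permutation adjusted p 2.48e-05). The GRIN2C:GRIN2A ratio was 0.94 ± 0.29 in the cerebellum and -1.44 ± 1.55 in the pons, against means of -6.70 and -6.44 over the other 9 regions. The pontine difference of 5.00 had an exact permutation adjusted p of 0.0203, and 0.0751 and 0.0569 without sheep 687 and 688. The GRIN2D:GRIN2A ratio was raised in the pons by 3.20 and in the basal ganglia by 2.61, where GRIN2A itself was low.

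Among the AMPA ratios, GRIA4:GRIA2 averaged 0.46 ± 0.08 in the cerebellum, with all 5 sheep between 0.35 and 0.55, while no other library was above -0.22 (difference 2.42, exact permutation adjusted p 1.65e-05). It was lower in the hippocampus, -2.93 ± 0.70 (difference -1.35, exact permutation adjusted p 0.0267), and did not pass without sheep 687, 688, 690 or 694 (exact permutation adjusted p 0.0522 to 0.116). GRIA1:GRIA2 was raised in the hippocampus to 1.01 ± 0.14, a difference of 0.69 (exact permutation adjusted p 0.0130), with sheep 699 inside the range of 0.82 to 1.14. It did not pass without sheep 694 (exact permutation adjusted p 0.0717). The hippocampus of sheep 699 had the lowest GRIA1 and GRIA2 of the 5, and its ratio lay among the others. GRIA3:GRIA2 was raised in the pons by 1.88, from -0.78 to 1.95 between sheep, and lowered in the cerebellum by -1.09 (exact permutation adjusted p 0.0267), which did not pass without any 1 of the 5 sheep (exact permutation adjusted p 0.0707 to 0.0757). Between the families, GRIA2:GRIN1 was lower in the cerebellum by -1.53, with 5 sheep between -1.81 and -1.28 beside -1.58 to 1.03 in the other libraries (exact permutation adjusted p 2.20e-05). Entorhinal, frontal, motor, prefrontal, posterior parietal and visual cortex passed in no ratio.

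The other subunits and partners of these receptors were counted by region in 3 lists: 9 further ionotropic glutamate receptor genes, 17 auxiliary subunits, which set the trafficking and gating of AMPA and kainate receptors, and 15 scaffold and kinase genes of the postsynaptic density. In the cerebellum, where 9.35% of all genes were called higher and 19.5% lower, 3 further receptor genes were called higher and 3 lower (list median -0.45, all genes -0.04). GRIN3A, a glycine-binding NMDA subunit, was lower by -2.0 in the cerebellum and by -2.23 in the basal ganglia. Of the auxiliary subunits 5 were higher and 8 lower in the cerebellum (median -0.75), with SHISA6 at 101 ± 34.1 CPM (2.50) and CACNG5 at 0.194 ± 0.136 CPM (-6.60). No scaffold gene was higher and 6 were lower (median -0.54), led by CAMK2A, the kinase that binds GRIN2B, at 76.8 ± 20.3 CPM against a median of 2035 in the other 45 libraries.

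In the basal ganglia, where 5.54% of all genes were higher and 4.75% lower, 7 auxiliary subunits were called higher and 1 lower (median 0.83, all genes -0.01). CACNG5 led with 40.7 ± 13.9 CPM (1.94), and SHISA6 fell by 2.15. Of the scaffold genes 1 was higher there, CAMK2B (1.44), and 3 lower, led by DLGAP1 (-1.38), and of the further receptor genes GRIN3A was the 1 that was called. In the pons, beside 9.66% of all genes higher and 9.02% lower, 11 of 17 auxiliary subunits (median -1.49) and 10 of 15 scaffold genes (median -2.36) were lower and none higher, with CACNG3 at -3.55 and CAMK2A at -4.84. The further receptor genes of the pons did not share that shift: 1 was lower, the kainate subunit GRIK5 (-1.74), 1 was higher, GRIN3B at 7.07 ± 7.56 CPM (4.37), a glycine-binding subunit known from motor neurons, and the list median was 0.04. In the hippocampus, beside 3.46% of all genes higher and 1.15% lower, 4 auxiliary subunits were higher and none lower, with SHISA6 at 99.1 ± 48.7 CPM (2.47), and 1 scaffold gene, CAMK2A (1.14).

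Across the 50 sheep brain libraries, the gene most like a member in log2 level among 9349 genes with a mean of at least 10 CPM was, by Pearson's r, PCDH8 for GRIA1 (0.87), TMEM132B for GRIA3 (0.92), MAPK6 for GRIA4 (0.92), PHYHIP for GRIN1 (0.95), BSN for GRIN2A (0.92), ICAM5 for GRIN2B (0.97), CBLN3 for GRIN2C (0.95) and TDRP for GRIN2D (0.66). The second for GRIN2C was GABRA6 (0.95). Between members, GRIA2 and GRIN2B were most alike (0.86), and GRIA3 and GRIN2C most opposed (-0.84). The libraries share 5 animals and 10 regions, and these values describe them without a test.

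In whole rat brain, male and female levels overlapped for all 9 genes, and 0 of 9 were called between the sexes by edgeR and by DESeq2, beside 0.0583% of all genes (0.0438% higher and 0.0146% lower in males). At an unadjusted p below 0.05 there was 1, GRIN2C: it ran from 93.0 through a median of 129 to 198 CPM in 15 males and from 66.7 through 114 to 152 CPM in 14 females, higher in males by 0.26 ± 0.12 on the log2 scale (p 0.0414, adjusted p 0.483, edgeR). The share of all genes at that unadjusted threshold was not computed, and GRIN2C did not pass adjustment. The other 8 members differed by -0.17 to -0.04. GRIN1 was among the steadiest, at 225 to 300 CPM in males (median 264) and 207 to 311 CPM in females (median 276). GRIA2 lay at 180 to 351 CPM in males (median 300) and 181 to 372 CPM in females (median 323). GRIN2B had the largest spread for its mean, from 64.1 to 211 CPM in males and from 54.4 to 257 CPM in females. Its lowest values were those of male 4 and female 2, the brains with the most MBP, 23038 and 20000 CPM, and male 4 is also one of the brains high in ribosomal RNA.

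Rat brain shares of GRIN2 counts were 35.4% ± 6.96 for Grin2b, 33.8% ± 9.71 for Grin2c, 27.0% ± 3.29 for Grin2a and 3.8% ± 0.686 for Grin2d in males (SD, n = 15). In females they were 39.1% ± 7.14, 28.0% ± 8.69, 28.9% ± 2.35 and 3.97% ± 1.01 (SD, n = 14). Whole rat brain contains the cerebellum, and brains differed in their GABRA6, from 26.1 CPM in male 5 to 205 CPM in female 26.

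**Figure D4:**
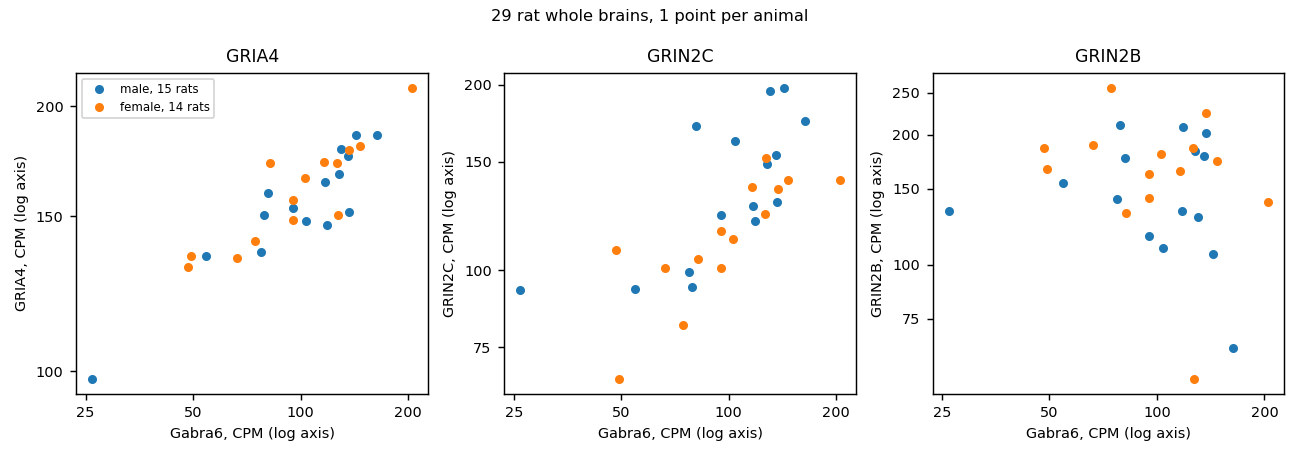
Levels of GRIA4, GRIN2C and GRIN2B (TMM-scaled CPM, log axis) against the granule cell marker GABRA6 (CPM, log axis) in 29 whole rat brains, 15 male and 14 female. Each point is a brain. GRIA4 and GRIN2C rise along GABRA6, with Pearson's r of 0.90 and 0.70, and GRIN2B does not (r -0.20).

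GRIA4 followed GABRA6 over the 29 brains with Pearson's r 0.90 and Spearman's rho 0.84 (permutation test, both p 1e-05, the smallest these permutations can give; adjusted over 9 genes 9e-05 and 4.5e-05). It was 0.83 without the 2 brains farthest from the median, 0.92 within males and 0.89 within females. GRIN2C followed GABRA6 with r 0.70 (permutation p 5e-05, adjusted 0.000225) and rho 0.79 (permutation p 1e-05, adjusted 4.5e-05), 0.75 without the 2 farthest brains, 0.70 within males and 0.80 within females. For the other 7 genes the adjusted permutation p was 0.109 or more. GRIA4 and GRIN2C were the 2 members with the highest fold change in sheep cerebellum.

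The ovary was set against the brain of the same female rats to ask which subunits it holds at all. All 9 genes were called lower in the ovary, where 56.9% of all genes were called and 29.2% were lower. The median was -5.78 on the log2 scale, against 0.02 for all genes. GRIA3 was the least reduced, by -1.78 ± 0.14 (adjusted p 4.49e-13). It ran from 24.1 through a median of 53.6 to 91.8 CPM over 14 ovaries, on 1451 to 4892 counts. The lowest female brain held 103 CPM after TMM scaling, and the ovary values, of plain totals, are not on that scale. GRIA3 took 81% ± 7.32 of the AMPA gene counts in the ovary (SD, n = 14) and 17.6% ± 1.24 in female brain. All the remaining 8 averaged 0.297 to 6.20 CPM. GRIN1 lay at 0 to 0.832 CPM on 228 counts over the 14 ovaries (-10.19 ± 0.32), with 1 ovary at 0 counts. GRIN2A lay at 0.0540 to 0.780 CPM.

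GRIN2B ran from 0.911 to 16.3 CPM (median 5.28) and GRIN2C from 1.07 to 6.59 CPM (median 2.04) between ovaries. Over the 14 ovaries, 27 relations with lists of granulosa, theca and luteal, and oocyte markers were computed. GRIN2B followed the theca and luteal list (r 0.85, rho 0.81, permutation test, adjusted p 0.00234 and 0.0216; r 0.75 without the 2 farthest ovaries) and GRIN2C ran against it (r -0.87, rho -0.76, adjusted permutation p 0.00234 and 0.0300; r -0.78 without the 2 farthest). GRIA2 ran against the oocyte list (r -0.80, rho -0.72, adjusted permutation p 0.00234 and 0.0430; r -0.67 without the 2 farthest). The other 24 relations did not pass. GRIN2C rested on 56 to 360 counts per ovary, and Fdxr, next to Grin2c, held 25179 to 41829. GRIN2B rested on 53 to 866 counts, and LOC120102418, which overlaps Grin2b, held 13 to 285. The part of these neighbours in the GRIN2C and GRIN2B counts was not tested. Neuronal markers were low but present in ovary: the 4 of them summed to 4.79 to 34.8 CPM, mostly RBFOX3 at 2.2 to 33.4 CPM, and SLC17A7 of glutamatergic neurons averaged 0.0524 CPM. GAD1 and GAD2, of GABAergic neurons, averaged 9.32 and 4.26 CPM, with up to 20.2 and 11.6 CPM. Their part in the ovarian values was not tested. Of the partner lists, 8 of 9 further receptor genes, 17 of 17 auxiliary subunits and 14 of 15 scaffold genes were lower in ovary, with CACNG2 at -13.40 and CAMK2A at -11.22.

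**Figure D5:**
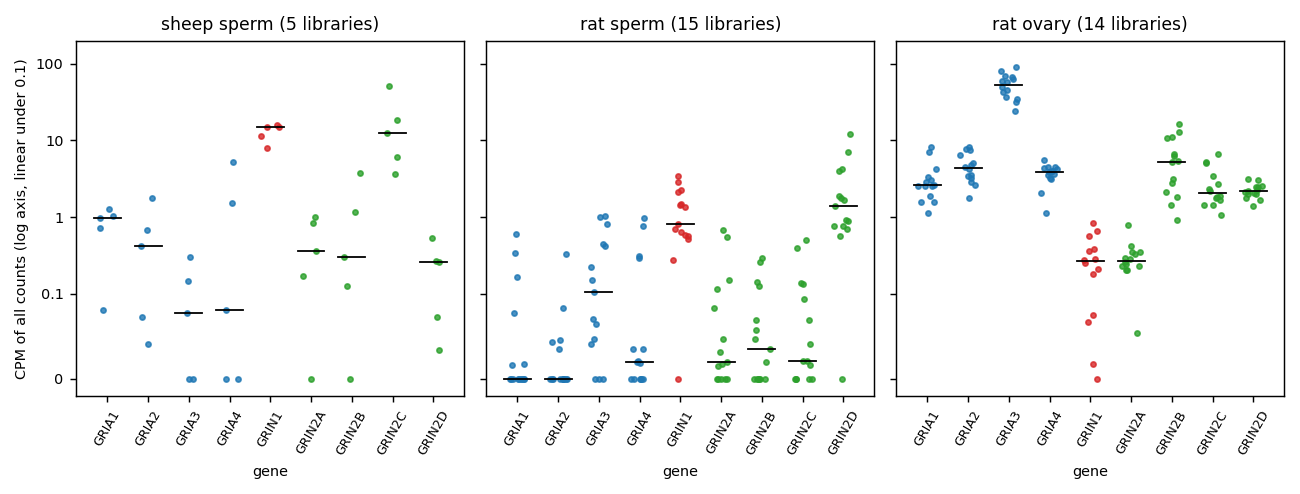
Levels of the 9 receptor genes in the reproductive samples (plain-total CPM, log axis that is linear under 0.1): 5 sheep sperm, 15 rat sperm and 14 rat ovary libraries, each point a library. GRIN2C is at 3.61 to 52.0 CPM in sheep sperm and at most 0.497 CPM in rat sperm, and GRIA3 is at 24.1 to 91.8 CPM in ovary.

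Sheep sperm was compared with the average over the 10 brain regions. All 9 genes were called, 8 lower and 1 higher, where 74.2% of all genes were called, 33.1% higher and 41.1% lower. The median of the 9 was -4.24 on the log2 scale, against -0.42 for all genes. GRIN2C was the gene that was higher. Its sperm libraries held 235, 2555, 251, 180 and 599 counts, or 3.61, 52.0, 18.3, 6.09 and 12.6 CPM of plain totals. Sheep 688 was highest. Its spermatid markers were the lowest of the 5 sheep, 1.88 against 3.98 to 5.74 as a mean of log2(CPM + 1). On plain totals all 5 lay above the 35 cortical and hippocampal libraries, at most 3.05 CPM, and 4 of 5 lay above the highest pons at 5.24 CPM, while none reached the cerebellum, at 105 CPM or more. The fitted rise was 6.44 ± 0.26 (adjusted p 1.55e-28), and 5.72 without sheep 688. TMM factors of sperm were 0.114 to 0.305, which raises sperm levels against brain: on plain totals the mean log2 difference from the brain of the same sheep was 3.62, positive in 5 of 5 sheep.

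GRIN1 held 741, 738, 204, 236 and 748 counts in sheep sperm, a mean of 13.0 ± 3.28 CPM (SD, n = 5). It was lower by -1.53 ± 0.30 in the fit (adjusted p 8.37e-06) and by -4.09 ± 0.58 (SD, n = 5) on plain totals, in 5 of 5 sheep. Lrrc26, which overlaps Grin1 in the rat annotation, held 649, 3458, 704, 391 and 2649 counts in the same libraries. Whether the sheep genes overlap was not looked at here. FDXR, next to Grin2c in rat, held 0, 190, 26, 15 and 60 counts. Farther from Grin2c in rat, FADS6 held 6, 342, 37, 20 and 136 counts and TMEM104 11, 20, 6, 83 and 61. The part of these neighbours in the GRIN1 and GRIN2C counts was not tested.

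The other 7 members averaged 0.105 to 1.37 CPM in sheep sperm and were lower by -2.75 to -7.68. GRIA1 held 47, 4, 14, 38 and 46 counts and GRIN2A 55, 0, 5, 5 and 47, with the most in sheep 687 and 699. GRIA4 held 0, 4, 21, 155 and 0 counts and GRIN2B 0, 15, 16, 112 and 6, with the most in sheep 694. Counts of 0 allow up to 0.0461 CPM in sheep 687 and 0.0633 CPM in sheep 699, from counting error alone. Sheep sperm held other cells: S100A8 and S100A9, of neutrophils, averaged 4689 and 10839 CPM, and the 4 leukocyte markers summed to 1565 to 39660 CPM, against 4.88 to 27.6 CPM in hippocampus. The 6 spermatid markers summed to 48.3 to 1219 CPM. Of the 4 neuronal markers, SNAP25, SYT1 and STMN2 averaged 0.221, 0.212 and 0.125 CPM, while RBFOX3 averaged 7.87 CPM and reached 21.4. Their counts together were 758, 30, 22, 191 and 1035 by sheep, and their part in the member counts was not tested. Which cells carried GRIN2C was not tested. Of the partner lists 8 of 9, 16 of 17 and 11 of 15 genes were lower in sheep sperm, and GRIP1, a scaffold that binds GRIA2 and GRIA3, was higher by 2.71.

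In rat sperm all 9 genes were called lower than in male brain, where 59.1% of all genes were called and 31.5% were lower. The median was -9.83 against -0.03 for all genes. GRIN2D was the least reduced, by -2.52 ± 0.45 (adjusted p 7.24e-06): it ran from 0 through a median of 1.41 to 12.1 CPM, on 0 to 708 counts, and took 90.5% ± 7.63 of GRIN2 counts in the 14 sperm libraries that had any (SD). The lowest male brain held 11.5 CPM after TMM scaling, and the highest sperm library, sperm 14, is of plain totals and not on that scale. Kdelr1, next to Grin2d, had a median of 18481 counts there, and of the genes that overlap it Grwd1 had 738 and LOC134483106 had 3, with up to 1587, and the part of their reads in the GRIN2D count was not tested. GRIN1 ran from 0 through 0.818 to 3.43 CPM (-7.68 ± 0.38). Every other member had a median of 6 counts or fewer and 3 to 10 of 15 libraries at 0, and the falls ran from -8.71 for GRIA3 to -12.67 for GRIA2.

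Member counts in rat sperm varied with the library. Sperm 14 and 7 held 1053 and 522 counts over the 9 genes, and had the highest spermatid lists, 11.4 and 11.2 as a mean of log2(CPM + 1). The same libraries also had the most counts of the 4 neuronal markers, 346 and 155, against 1 to 110 in the other 13. The part of either cell type in the member counts was not tested. Sperm 17 held 0 in 13.7 M counts, and sperm 16 held 115, all in GRIN1 and GRIN2D. Partner genes were low as well: 8 of 9 further receptor genes, 17 of 17 auxiliary subunits and 13 of 15 scaffold genes were lower. Sperm minus brain of the same animal was 3.62 ± 1.69 for GRIN2C in sheep, from 1.51 to 5.93, and -11.72 ± 2.15 in rats, negative in 15 of 15. The species difference itself was not tested. Rat brain was whole, while sheep brain is the mean of log2 levels over 10 regions, which gives the high cerebellum little weight. Species and library preparation cannot be told apart.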

How the data were processed

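The authors deposited whole-number counts for every gene and library, without scaling or pooling. Per the design text that accompanies the labels, they trimmed paired reads in Trimmomatic v0.39, used STAR v2.7.5a for alignment (ARS-UI_Ramb_v3.0 for sheep, GRCr8 for rat) and Rsubread v2.20.0 for counting. How strand and multimapping reads were handled was not given in the sources used here, so counts of overlapping genes are uncertain.

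Differences in counts were tested by edgeR 4.0.16 under R 4.3.3 (quasi-likelihood test, TMM factors, filterByExpr by group, prior count 0.125), with Benjamini-Hochberg adjustment over all genes tested. One fit over 50 libraries compared each sheep region with the remaining 9, another compared sheep sperm with the average region, and rat groups were fitted in pairs. The SE was computed back from the F statistic. Levels in brain are TMM-scaled CPM, and those in sperm and ovary plain-total CPM; no gene lengths were used, so levels of different genes are not on 1 scale. Ratios used counts plus 0.5 and exact permutation tests, correlations 100000 permutations of log2 levels (log2(CPM + 1) for lists). Paired sperm and brain differences used log2(CPM + 0.01). The limit for 0 counts is 3 counts of the total. Tests were checked on simulated data.

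The members and lists were chosen with earlier results of these data known. Named genes are the 9 members, the called gene with the largest change per list, comparison and direction, and the genes most like each member; a few of these are not reported here. Sheep numbers mark animals: same-animal libraries of different regions deviated together weakly (median r 0.18, range -0.37 to 0.68, against -0.04 for other animals), and rat sperm or ovary and brain share a number per animal. Alternatives were RLE factors, no filter, DESeq2 1.42.0, a replicate block, leaving out each sheep, rat sperm 16 and 17, rat brains 1 and 4 and the libraries that stood apart; the last 2 choices were made after seeing the data. Where the p-values compare libraries of 5 sheep, they measure the spread between these libraries.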

Additional observations from a re-analysis of the deposited data

Results flagged for a closer look

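Over the 99 groups of 5 sheep libraries, 6 had a highest or lowest library whose gap to its neighbour was large for the range of the group, and chance gives about 1 in 20. GRIA2 in the pons was highest in sheep 694, at 121.8 CPM against 51.96 in the next. GRIA3 in the basal ganglia was highest in sheep 690, at 124.2 CPM against 99.90. GRIA4 in the hippocampus was highest in sheep 690, at 36.63 CPM against 29.28. GRIA4 in the pons was highest in sheep 688, at 42.16 CPM against 35.03. GRIN2A in the hippocampus was lowest in sheep 699, at 26.54 CPM against 111.1, in the library that also had little NEUROD6. GRIN2C in entorhinal cortex was highest in sheep 687, at 2.873 CPM against 0.6207, in the library that also held GABRA6.

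GRIN2C differed between species in its direction between sperm and brain. The log2 difference of sperm from the brain of the same animal averaged 3.623 in sheep and was positive in 5 of 5, and it was negative in 15 of 15 rats; the difference between the species was not tested.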

How the results depend on the processing

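In a replicate block over animals, every comparison between tissues or regions kept its number of called members except the hippocampus, which went from 1 to 2; the 12 ratios passed in the block as well. DESeq2 called 2 members in the hippocampus and 2 in motor cortex, against 1 each by edgeR. Of all 21147 genes it called 1001 and 339 there, where edgeR called 976 and 347. Leaving out each sheep in turn gave 0 to 3 members in the hippocampus, 0 to 1 in motor cortex, 1 to 2 in prefrontal cortex, 1 to 2 in frontal cortex and 2 to 3 in visual cortex. In that order, these fits called 625 to 1168, 229 to 456, 304 to 570, 387 to 627 and 281 to 535 of all genes. The genes tested numbered 21146 to 21196, so the calls over all genes moved as well. GRIN2A in prefrontal cortex passed without sheep 688 (1.04), and GRIN2B in the hippocampus without sheep 699 (1.04). Without motor cortex of sheep 687 the hippocampus had 2, beside 1159 of all 21361 genes. Without the 5 libraries that stood apart the hippocampus had 3 and motor cortex 2, beside 1296 and 597 of all 21923 genes. Both choices were made after seeing the data. GRIA3 in the pons, which was not called, turned to -0.18 without sheep 699. Between 9 and 11 ratios passed when a sheep was left out. Of the member fold changes tallied over these settings, 675 kept their direction and side of the threshold, 8 became calls, 5 stopped being calls and 1 turned. Apart from a few chosen ones, the tally leaves out region fold changes that did not pass the adjusted p in the main fit. The new calls of GRIN2C in the hippocampus and in motor cortex are therefore not among the 8. With RLE factors the median gene moved by 0.25 in sheep sperm and by -0.24 in rat sperm, and no member's call changed. Mean levels moved by more than 1 SD in 35 cases, among them all 9 members in sheep sperm, which TMM or RLE scaling raises. The 27 rat brains without 1 and 4 changed no member's call. With 5 sheep and 13.7 M counts in the smallest sperm libraries, members with under 3 counts are at the limit of detection.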
